A study of Mus musculus with 2 samples.

Results

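Transcripts of neutrophil granule proteins and of the S100A8 and S100A9 alarmins were followed in mouse bone-marrow-derived macrophages, which are grown in culture from marrow precursors. The 10 genes were chosen by name, as S100a8, S100a9, Lcn2, Ngp, Camp, Ltf, Mmp8, Mpo, Elane and Retnlg. All 10 were found among the 51084 gene identifiers that both count tables share, and 7 of them reached 1 count per 1000000 scaled counts (CPM) in a library. The CANDI470 culture came from C57BL/6J mice and received CANDI470, an agent known here by its code name alone, at 1 mg/mL on culture day 7, with RNA taken 12 h later. The PBS control culture, of the same strain, is labelled as given PBS, with the same culture day 7 and time of 12 h. Each group had 1 library of polyadenylated RNA, with 41646905 counts on genes for CANDI470 and 28442450 for the PBS control. Cultures given empty CANDI were not analysed here, so a response shared with the empty carrier cannot be told apart. The labels give no age, sex or number of mice.

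Neutrophils carry their antimicrobial proteins in granules that are filled in sequence as the cell matures in the marrow. Azurophil granules come first and hold myeloperoxidase and serine proteases, specific granules follow with lactoferrin, cathelicidin and lipocalin-2, and gelatinase granules come last. S100A8 and S100A9 fill the neutrophil cytosol as the heterodimer calprotectin and act as alarmins when released. Some of these genes, among them Lcn2, are also known to be induced in activated macrophages. Marrow cultures can also retain some granulocytes.

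The promoter windows of the members are shown because a letter motif recurs in them. Each window runs from 250 bases before to 50 after the gene start and was taken from RefSeq on GRCm38.p6, where all 10 members matched by symbol. The C/EBP-type motif TTNNGCAA, searched on both strands, was in 6 of the 10 windows, those of Lcn2, S100a9, Mmp8, Ngp, Ltf and Retnlg, and in 10.8% of all 32851 promoter windows of this length. C/EBP factors are regulators of granulocyte genes. Capitals mark the motif in either orientation. The whole windows of Lcn2 (chr2:32387690-32387989, minus strand), S100a9 (chr3:90695672-90695971, minus strand) and Ngp (chr9:110419558-110419857, plus strand), and stretches of Ltf (chr9:111019197-111019244, plus strand), Mmp8 (chr9:7558390-7558437, plus strand) and Retnlg (chr16:48872358-48872389, plus strand), read as follows, 5′ to 3′.
Lcn2: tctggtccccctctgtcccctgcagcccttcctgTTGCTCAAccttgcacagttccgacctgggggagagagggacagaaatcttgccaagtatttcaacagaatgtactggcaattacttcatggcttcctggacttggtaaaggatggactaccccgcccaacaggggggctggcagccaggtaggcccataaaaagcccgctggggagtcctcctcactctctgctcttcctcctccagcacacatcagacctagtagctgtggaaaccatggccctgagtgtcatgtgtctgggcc
S100a9: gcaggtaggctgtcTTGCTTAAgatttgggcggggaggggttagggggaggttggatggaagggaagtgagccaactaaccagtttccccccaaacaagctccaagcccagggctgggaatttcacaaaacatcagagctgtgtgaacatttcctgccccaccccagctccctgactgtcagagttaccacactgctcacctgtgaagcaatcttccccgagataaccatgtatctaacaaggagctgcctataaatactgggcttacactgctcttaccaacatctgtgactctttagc
Ngp: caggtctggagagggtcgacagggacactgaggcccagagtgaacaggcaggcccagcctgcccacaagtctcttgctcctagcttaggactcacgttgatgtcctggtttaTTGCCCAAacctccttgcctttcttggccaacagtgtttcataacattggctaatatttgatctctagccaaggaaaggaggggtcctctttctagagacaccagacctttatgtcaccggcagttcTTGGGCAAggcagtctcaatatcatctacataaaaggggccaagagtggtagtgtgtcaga
Ltf: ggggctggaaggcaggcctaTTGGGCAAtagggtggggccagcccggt
Mmp8: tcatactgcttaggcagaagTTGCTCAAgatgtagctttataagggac
Retnlg: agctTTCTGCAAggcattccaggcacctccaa

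The windows of S100a8, Camp, Mpo and Elane held no such letters. The AP-1 motif TGAGTCA, held by 5.2% of all windows, and the STAT motif TTCNNNGAA, held by 8.3%, were in 0 of the 10 member windows on either strand. An NF-kB motif and an interferon response motif, held by 1.2% and 3.44% of all windows, were in 0 of 10 as well. A match describes letters and not a bound site. The RefSeq start of Lcn2 lies 513 bases downstream of the 5′ end of its gene model in the PBS control table.

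The libraries were both macrophage-like by their markers. All 11 macrophage markers were measured, with a summed 14746 CPM in CANDI470 and 26684 CPM in the PBS control. Of these, 2 were at least 2-fold higher in CANDI470, 4 at least 2-fold lower and 5 within 2-fold, with a median log2 difference of -0.70. Fcgr1 and Mertk, an Fc receptor and a receptor for dying cells, were at 2.55 and 2.52. Csf1r, the growth factor receptor of the lineage, was at -2.24, though its gene model had 5774 bases for CANDI470 and 4885 for the control. In bulk RNA, fewer cells of a type and less RNA per cell cannot be told apart. Each library had its own table with its own annotation, and the effect of CANDI470 cannot be told apart from how the libraries were made and counted. All 10 members had the same gene length in both tables, and none overlapped more genes in one than in the other.

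Each difference below subtracts log2(CPM + 1) of the PBS control from that of CANDI470, with CPM scaled by TMM. This scale understates changes of genes with few counts. With 1 library a group there was no replicate check, and no test was run. Ratio intervals are 95% exact conditional binomial intervals. They cover counting error only and not differences between cultures, since each group had 1 library. They may also be too narrow, because no molecular identifiers are named for these reads and several can come from 1 molecule. All 7 measured members were at least 2-fold higher in CANDI470, against 25.7% of the 12779 genes that reached 1 CPM in either library, and none was 2-fold lower, against 23.6%. The same 7 were at least 4-fold higher, against 11.5%. Their median difference was 4.32, beside -0.01 over all genes. Camp, Ltf and Mmp8 passed the 1 CPM minimum through CANDI470 alone, so their being higher was fixed by that minimum. The 10 members together took 22659 counts in CANDI470, 0.0547% of the library, and 296 counts in the PBS control, 0.00105%.

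Because most members were low in the PBS control, they were also set beside other genes at that level, a range chosen after the values were seen. With 20 to 60 counts in the PBS control there were 1595 genes, 6 members among them, of which 255 genes were at least 2-fold and 150 genes, or 9.40%, at least 4-fold higher in CANDI470. All 6 members in that range were 4-fold higher. Their differences lay at percentiles 96.9 to 99.5 of all measured genes.

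**Figure D1:**
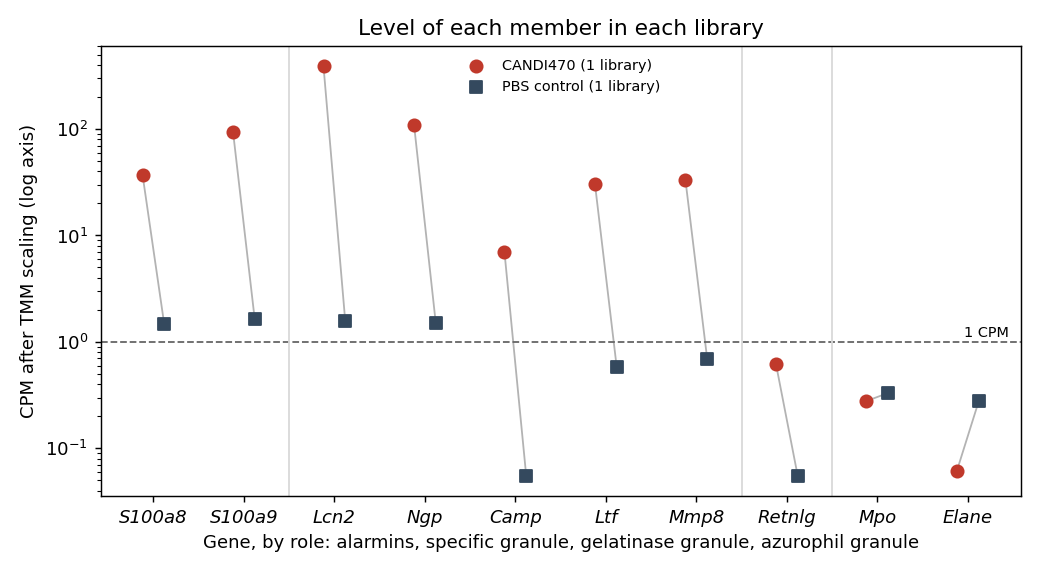
CPM after TMM scaling (log axis) of the 10 members in the CANDI470 library (circles) and the PBS control library (squares), grouped by role, with 1 library a group and no error bar. The alarmins and the 5 specific granule genes lie between 6.92 and 388 CPM in CANDI470 and between 0.0552 and 1.63 CPM in the PBS control, while Retnlg, Mpo and Elane are below 1 CPM in both.

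The alarmin pair was higher in CANDI470. S100a8 (ENSMUSG00000056054, chromosome 3, 90668978 to 90670035 on GRCm38) had 1206 counts in CANDI470 and 53 in the PBS control. Its level was 37.3 CPM in CANDI470 and 1.46 CPM in the PBS control. The log2 difference was 3.96 and the CPM ratio 25.5, with an interval of 19.3 to 34.2. Its partner S100a9 (ENSMUSG00000056071, chromosome 3, 90692632 to 90695721) had 3052 against 59 counts, or 94.3 against 1.63 CPM. The log2 difference was 5.18 and the ratio 57.9, with an interval of 44.8 to 76.2. The 2 genes lie next to each other in the S100 cluster and their proteins pair, yet the difference of S100a9 exceeded that of S100a8, and the ratio intervals did not overlap. Within a library, which needs no scaling, S100a9 had 2.53 counts per count of S100a8 in CANDI470 (interval 2.37 to 2.71) and 1.11 in the PBS control (0.755 to 1.64).

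The wider S100 family did not move one way. Of 13 listed genes 8 were measured, 3 at least 2-fold higher in CANDI470 with the alarmin pair among them, 4 at least 2-fold lower and 1 within 2-fold. Their median was -0.77. Over all measured genes 25.7% were at least 2-fold higher and 23.6% at least 2-fold lower. S100a11 was at 1.27, but at 0.57 under library totals and 0.90 under upper-quartile scaling. S100a4, a calcium-binding protein linked to cell motility, had 4 counts in CANDI470 and 799 in the PBS control, a difference of -4.36. S100a6 had 460 against 8018 counts, a difference of -3.87, while S100a1 and S100a13 were at -1.52 and -1.47. S100a4 and S100a6 had the same gene length in both tables. The alarmin pair was thus higher in the library in which 4 other family members were lower.

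Among the 5 specific granule members, Lcn2 had the highest CPM in CANDI470. Lcn2 (ENSMUSG00000026822, chromosome 2, 32384633 to 32388252) encodes lipocalin-2, which withholds iron from bacteria by binding their siderophores. It had 12540 counts in CANDI470 and 57 in the PBS control, or 388 against 1.57 CPM, a log2 difference of 7.24 and a ratio of 246 (interval 189.9 to 325). This was the largest difference of the 10 members, at percentile 99.5 of all measured genes. Ngp (ENSMUSG00000032484, chromosome 9, 110419747 to 110423012), neutrophilic granule protein of the cathelicidin-related family, had 3566 against 55 counts. It stood at 110.2 against 1.52 CPM, a difference of 5.46 and a ratio of 72.6 (55.6 to 96.5).

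Camp (ENSMUSG00000038357, chromosome 9, 109847379 to 109849617), which encodes the antimicrobial cathelicidin, had 224 counts in CANDI470 and 2 in the PBS control. That is 6.92 against 0.0552 CPM, with a difference of 2.91. With so few control counts its ratio of 125 had an interval of 34.3 to 1041. Ltf (ENSMUSG00000032496, chromosome 9, 111019271 to 111042767), the iron-binding lactoferrin, had 977 against 21 counts, or 30.2 against 0.58 CPM. Its log2 difference was 4.30 and its ratio 52.1 (33.9 to 84.5). Mmp8 (ENSMUSG00000005800, chromosome 9, 7558456 to 7568485), the neutrophil collagenase, had 1063 against 25 counts, or 32.9 against 0.69 CPM, a difference of 4.32 and a ratio of 47.6 (32.1 to 73.9). The intervals of Ltf, Mmp8, Ngp and S100a9 overlapped one another, and that of Lcn2 lay above those of S100a8, S100a9, Ngp, Ltf and Mmp8.

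The 3 members of the gelatinase and azurophil granules, Retnlg, Mpo and Elane, had few counts. Retnlg (ENSMUSG00000022651, chromosome 16, 48872621 to 48874496), a resistin-like protein of neutrophils, had 20 counts in CANDI470 and 2 in the PBS control, 0.618 against 0.0552 CPM. Its ratio was 11.2 with an interval of 2.72 to 98.8. Mpo (ENSMUSG00000009350, chromosome 11, 87793581 to 87804413), the myeloperoxidase of azurophil granules, had 9 against 12 counts, or 0.278 against 0.331 CPM, a ratio of 0.839 (0.312 to 2.17). The antisense gene Gm11505 overlaps Mpo, and the strand setting of the counting is not given in the sources used here. Elane (ENSMUSG00000020125, chromosome 10, 79886247 to 79888215), neutrophil elastase, had 2 against 10 counts, or 0.0618 against 0.276 CPM, a ratio of 0.224 (0.0238 to 1.05). For Mpo and Elane a difference was not detectable at this depth, since both intervals held 1. Per 1 count of Ltf there were 0.00921 of Mpo in CANDI470 (0.0042 to 0.0176) and 0.571 in the PBS control (0.256 to 1.22). So the 2 azurophil members took a smaller part of the granule transcripts in CANDI470.

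Relative to macrophage transcripts, a comparison that needs no scaling between libraries, the count of members higher in CANDI470 depended on the transcript. It was 9 of 10 against Lyz2 and against Adgre1, which were themselves at -0.93 and -0.70, and 10 of 10 against Csf1r, itself at -2.24. Elane was among those 10 at a quotient of only 1.06. Per 1000 counts of Csf1r it had 0.110 in CANDI470 (0.0134 to 0.399) and 0.104 in the PBS control (0.0499 to 0.191), with overlapping intervals. Against Fcgr1 and Mertk, which were higher in CANDI470 and were added after the values were seen, the count was 8 of 10, with Mpo and Elane lower. Per 1000 counts of Lyz2, the macrophage and granulocyte lysozyme, Lcn2 had 53.3 counts in CANDI470 and 0.114 in the PBS control. Per 1000 counts of Adgre1, a surface receptor gene of macrophages, Lcn2 had 449 against 1.12. Over the members this Adgre1-based quotient, CANDI470 over the PBS control, ran between 0.363 for Elane and 399 for Lcn2, with a median of 80.7 and 9 of 10 above 1. Mpo was among those 9, at 1.36, although its CPM was lower in CANDI470.

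Per length, the levels were ordered differently in each library. Values here are counts per base of gene model, scaled to 1000000 over all shared genes. In CANDI470 the order was S100a9 at 482, Lcn2 at 394, Ngp at 240.5, S100a8 at 143, Mmp8 at 36.1, Camp at 24.4, Ltf at 23.3, Retnlg at 2.78, Mpo at 0.217 and Elane at 0.167. The 95% exact Poisson intervals of neighbours overlapped for Camp with Ltf and for Mpo with Elane. In the PBS control it was S100a9 at 11.1, S100a8 at 7.51, Ngp at 4.42, Lcn2 at 2.14, Mmp8 at 1.01, Elane at 0.999, Ltf at 0.598, Mpo at 0.345, Retnlg at 0.332 and Camp at 0.259. There all neighbours overlapped except Ngp with Lcn2 and Lcn2 with Mmp8. S100a9 led in both libraries, and Lcn2 came next in CANDI470 but after S100a8 and Ngp in the PBS control.

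**Figure D2:**
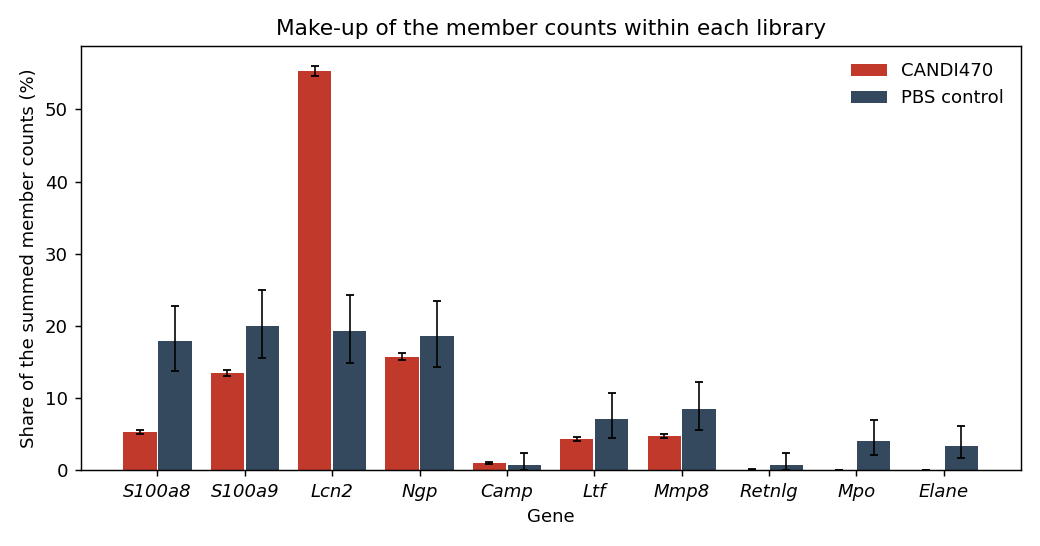
Share (%) of the summed counts of the 10 members that each gene took within the CANDI470 library (left bars, of 22659 counts) and the PBS control library (right bars, of 296 counts), with 95% exact Clopper-Pearson intervals for counting error. Lcn2 takes 55.3% in CANDI470 and 19.3% in the PBS control, while S100a8 takes 5.32% and 17.9%.

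The make-up of the member counts differed between libraries. Lcn2 took 55.3% of them in CANDI470 (interval 54.7 to 56.0) and 19.3% in the PBS control (14.9 to 24.2). S100a8 took 5.32% in CANDI470 (5.03 to 5.62) and 17.9% in the PBS control (13.7 to 22.8). Mpo and Elane took 0.0397% and 0.00883% in CANDI470, and 4.05% and 3.38% in the PBS control. The share of Ngp was 15.7% in CANDI470 (15.3 to 16.2) and 18.6% in the PBS control (14.3 to 23.5), with overlapping intervals. The 10 genes thus did not hold 1 ratio to each other across the libraries.

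Wider lists of granule genes were set beside the members, and the difference between granule classes was not tested. In these lists, as in the members, a gene that passes the 1 CPM minimum through CANDI470 alone must be higher there. All 12 listed specific granule genes, 5 of them members, were measured. Of these, 10 were higher by at least 2-fold in CANDI470 and 0 were lower, with a median of 3.61, and 6 passed the minimum through CANDI470 alone. Beside the members, Hp, the haemoglobin-binding haptoglobin, was at 6.95 and Chil3, a chitinase-like lectin, at 5.80. Ceacam1 and Cyba were within 2-fold. Of 10 gelatinase granule and secreted genes, 9 were measured, 4 of them through CANDI470 alone, with 5 higher, 0 lower and a median of 1.78. Mmp25, a membrane metalloproteinase, was at 7.35, the protease inhibitor Slpi at 6.36 and gelatinase Mmp9 at 3.81. Arg2, which the list also counts although it encodes a mitochondrial arginase, was at 5.37.

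Of 7 azurophil granule genes only 2 were measured, both higher. Srgn, the granule proteoglycan serglycin, which macrophages also make, was at 4.63, and the protease gene Ctsg, with 70 against 6 counts, at 1.44. Srgn overlaps 2 further gene models in the CANDI470 table alone. The other 5, named after their values were seen, stayed below 1 CPM in both libraries. Beside Mpo and Elane, Prtn3 had 19 against 8 counts, Ms4a3 14 against 1 and Prss57 0 against 8.

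Markers of mature neutrophils were few in counts. Of 12 neutrophil markers other than the members, 7 were measured and all 7 were higher in CANDI470. Of these, 6, all but Csf3r, passed the minimum through CANDI470 alone, so their being higher was fixed by it, and 2 were higher with a pseudocount or a minimum of 5 CPM. The median was 1.57, or 1.76 with the genes at 0 in the PBS control held at their bound. Their summed level was 431 CPM in CANDI470 and 119 CPM in the PBS control. Most of it was Csf3r, the receptor for the granulocyte growth factor G-CSF, which the PBS control library also held, with 13044 against 4278 counts. Without Csf3r the sums were 27.9 and 1.05 CPM. In CANDI470 none was at 0 and the other 11 ranged between 17 and 430 counts, the highest being Chil1 at a difference of 3.65. In the PBS control, Ly6g, Cxcr2, Stfa2l1, Mrgpra2b and Asprv1 were at 0 and the highest of the 11 had 12 counts.

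The defining surface genes were thus present at low levels in CANDI470. Ly6g had 27 counts and Cxcr2, the chemokine receptor of neutrophils, 52, each against 0, at least 10.1-fold and 19.4-fold higher against a floor of 3 counts per library. In that library Lcn2 had 12540 counts and Ngp 3566. These counts of different genes are not weighed against each other, because the ratio of these transcripts within a granulocyte is not known here. The part that granulocytes had in the member levels was not tested.

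Of 22 mature neutrophil genes, 13 were measured, 8 of them through CANDI470 alone, and 12 were higher, or 7 with a pseudocount or a minimum of 5 CPM, with 0 lower, while 12 of the 22 had no count in the PBS control. The median was 2.47, or 5.15 with the 5 measured genes at 0 held at their bound. The formyl peptide receptors Fpr2 and Fpr1 were at 6.85 and 6.28, and the Myc antagonist Mxd1 at 6.19. Other leukocytes carry these 3 transcripts too.

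**Figure D3:**
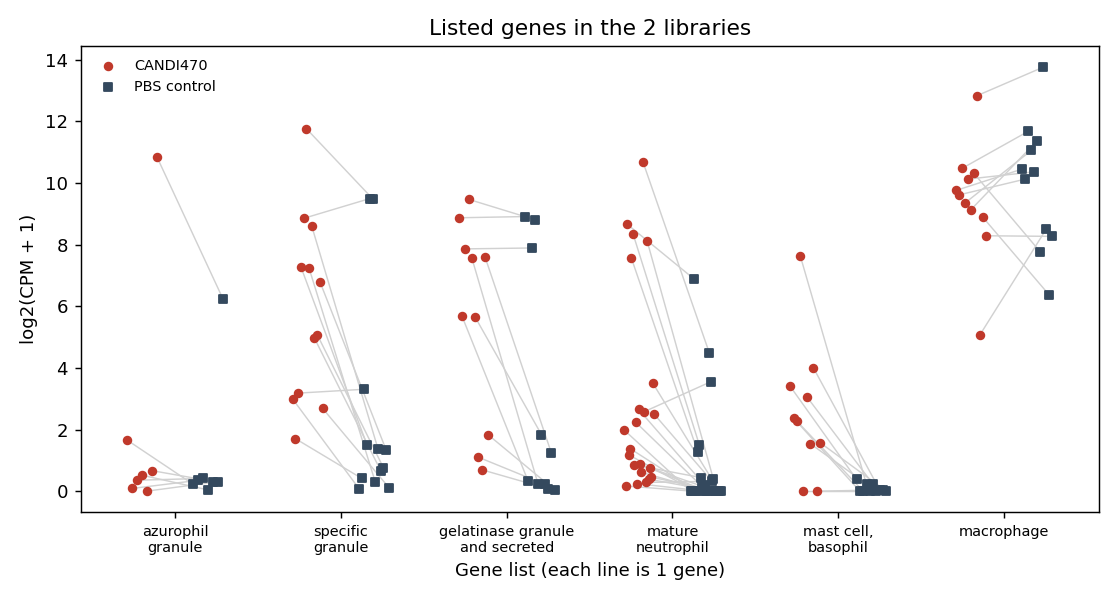
log2(CPM + 1) of each gene of 6 lists in the CANDI470 library (circles) and the PBS control library (squares), with each line 1 gene. Specific granule genes are mostly higher in CANDI470, 10 of 12 by at least 2-fold, whereas azurophil genes other than Srgn stay below 2, and 4 of 11 macrophage markers are at least 2-fold lower.

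Transcription factors of the granulocyte line were split between higher and lower. Over all 12779 measured genes 25.7% were at least 2-fold higher and 23.6% at least 2-fold lower, so such a split is not particular to these factors. Of 9 listed, 8 were measured, 3 at least 2-fold higher, 3 at least 2-fold lower and 2 within 2-fold, with a median of 0.30. Cebpe, which drives specific granule genes, had 77 against 5 counts, a difference of 1.57, and Gfi1, a repressor needed for neutrophil formation, had 106 against 2, a difference of 2.02. Nfkbiz, an NF-kB cofactor required for Lcn2 induction, was at 2.31 with 8375 against 1858 counts. Cebpa, which acts early in the granulocyte and monocyte lines, was at -3.03 and Cebpd at -1.71.

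A list of receptors and partners of the alarmins and lipocalin-2 held 10 genes that were found, of which 8 were measured. Of these, 2 were higher, 0 lower and 6 within 2-fold, with a median of 0.51. Over all measured genes 25.7% were at least 2-fold higher and 23.6% at least 2-fold lower. Tlr4, a receptor for S100A8 and S100A9, was at -0.41 with 1371 against 2054 counts. Its co-receptor Cd14 was at 1.99, though its gene model had 1732 bases for CANDI470 and 1572 for the control. Cd69, an early activation marker of leukocytes, was at 8.55, and Ager, which encodes RAGE, had 5 against 46 counts, a difference of -0.98. Ptafr, which the list also counts although it encodes the receptor for platelet-activating factor, was at 0.98.

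Many genes listed as markers of other marrow cells were higher as well, and which cells carried these transcripts was not tested. Of 10 mast cell and basophil markers 8 were measured and all 8 were higher, but all 8 passed the minimum through CANDI470 alone, so their being higher was fixed by it, and 4 were higher with a pseudocount or a minimum of 5 CPM. Their median was 2.61, or 4.55 with the 4 measured genes at 0 held at their bound. They summed to 243 CPM in CANDI470 and 0.69 CPM in the PBS control. In the PBS control 5 of 10 were at 0, and in CANDI470 Mcpt4 and Tpsab1 were. The histamine-forming enzyme Hdc, at 7.42, made up 199 CPM of that sum, and Prss34, Cpa3 and Mcpt8 were at 3.96, 3.02 and 2.84. Of 10 monocyte and progenitor markers 8 were measured, 5 of them through CANDI470 alone, with 7 higher, 0 lower, a median of 4.37 and sums of 1007 and 53.0 CPM. Plac8 was at 7.64, Vcan at 7.02 and Ly6c2 at 6.02, and none of the list was at 0.

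Eosinophil, lymphocyte and erythroid markers had low summed levels. Of 8 eosinophil markers 3 were measured, 2 higher and 1 lower, with sums of 19.1 CPM in CANDI470 and 11.1 CPM in the PBS control. Epx, the eosinophil peroxidase, had 14 against 0 counts, Ear2 was at 3.52 and Ccr3 at -1.69. Of 8 lymphocyte markers 1 was measured, Cd8a, with 54 against 0 counts. The 6 erythroid markers summed to 7 counts in CANDI470 and 2 in the PBS control. How far other cells contributed to the member levels was not tested.

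**Figure D4:**
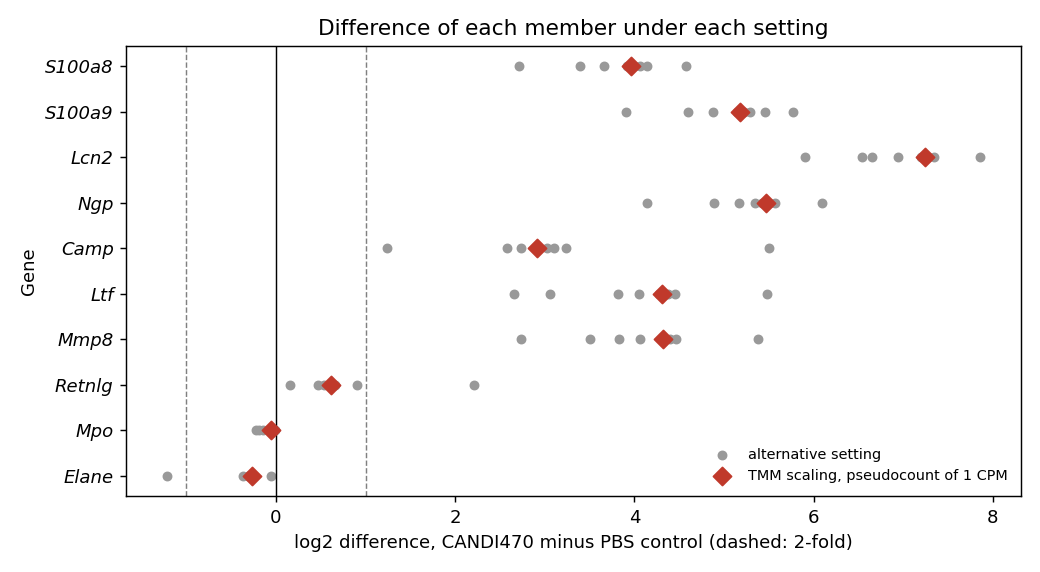
log2 difference (CANDI470 minus PBS control) of each member with TMM scaling and a pseudocount of 1 CPM (diamonds) and under each alternative setting (grey circles), with dashed lines at 2-fold. The 7 measured members lie at 1.24 or above in every setting, Retnlg lies between 0.15 and 2.21, and Mpo and Elane lie at or below -0.01.

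Other scalings, pseudocounts and filters left the direction of all 10 members as given, as the plot of differences by setting shows. Lcn2 ran between 5.90 and 7.86 over them, S100a9 between 3.91 and 5.77, Ngp between 4.14 and 6.09, and S100a8 between 2.71 and 4.58. Camp, with 2 control counts, had the widest range, 1.24 to 5.50. Retnlg passed 2-fold at a pseudocount of 0.1 CPM alone, and so did Elane on the lower side, at -1.22.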

How the data were processed

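RNA sequencing of polyadenylated RNA was used for 1 CANDI470 and 1 PBS control sample. The deposited tables hold raw whole-number counts per gene, as the file headers show. The authors also deposited log2 values (logCPM) of 12726 genes. Within a library these equalled the log2 of the count times a constant, plus 1, which corresponds to totals of 27.4 and 31.4 in units of 1000000 counts. The submitters' processing notes name mm10, but the CANDI470 counts came with member coordinates that differ from those of the control. Not given in the sources used here are the aligner, the counter, its strand setting and the annotation release. For the control, the count table and the log2 table each held 3 further columns of per-sample values that match no sample used here, and these were not used.

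Genes were joined by identifier over 51084 shared ones, which held 99.4% of the CANDI470 and 99.5% of the control counts. Member coordinates are those of the control table and of GENCODE M21 on GRCm38. The CANDI470 counts came with other coordinates for every member. Scaling used edgeR 4.0.16 (TMM, R 4.3.3) on the genes that reached 1 CPM in either library. The factors were 0.782 for CANDI470 and 1.28 for the control. A difference is log2(CPM + 1), measured means at least 1 CPM in a library, and higher or lower means 2-fold on this scale. With 1 library a group no test was run, and 2 libraries allow no likeness of pattern across samples. For CANDI470 1 count was worth 0.0309 CPM, for the control 0.0276 CPM, and the floor was 3 counts, 0.0927 and 0.0828 CPM. Intervals (scipy 1.17.1) cover counting error only. The steps were tested on simulated data.

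The members and lists were chosen with earlier results of these data known. Named genes are the members, for each list the 4 measured genes that differed most in size and the one farthest the other way, and genes said to be at 0. Further genes named as examples (Cebpe, S100a1, S100a11, S100a13, Mmp9 among them, and the low azurophil genes) were chosen after their values were seen. Some genes that the rule selects are not reported here. Alternatives were library totals, size factors from DESeq2 1.42.0, upper-quartile factors, the deposited log2 values, pseudocounts of 0.1 and 5 CPM, no filter, a 5 CPM minimum, protein-coding genes, genes of the same model length, CPM per gene length, and totals over all identifiers.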

Additional observations from a re-analysis of the deposited data

How the results depend on the processing

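All 10 members kept their direction under the 12 alternatives that give them a value (Mpo, Elane and Retnlg have none among the deposited log2 values), and the counts of members at least 2-fold and 4-fold higher stayed within 1.5 times. No paired analysis was possible because each group had 1 library, and for the same reason none could be left out. Library totals moved the median of all genes to -0.69 and upper-quartile scaling moved it to -0.38, with 28.8% and 38.8% of the genes past 2-fold then higher, against 52.1%. Relative to that median the members' median was 4.51 and 4.44, against 4.34 with TMM.

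Library totals gave 2080 genes 2-fold higher, 5152 lower and 960 genes 4-fold higher, and a pseudocount of 5 CPM gave 1774 genes lower and 962 genes 4-fold higher. The members' median was 5.50 with a pseudocount of 0.1 CPM and 2.73 with 5 CPM. Genes 2-fold lower under library totals numbered 1 among acute phase, mature neutrophil and specific granule genes, 2 among alarmin receptors and 7 among macrophage markers, and eosinophil markers higher numbered 1. Under upper-quartile scaling 1 gene was lower in each of the acute phase, alarmin receptor, mature neutrophil and specific granule lists. DESeq2 size factors and the 0.1 CPM pseudocount each put 1 mature neutrophil gene lower. The 0.1 CPM pseudocount, the deposited values and genes of the same model length each put 1 alarmin receptor lower, and the last left 1 higher. The deposited values left 1 azurophil, 0 eosinophil and 0 lymphocyte genes higher, and CPM per gene length left 1 eosinophil and 0 lymphocyte genes.

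A pseudocount of 5 CPM and a minimum of 5 CPM each left these counts higher in the lists named here: 1 azurophil gene, 1 eosinophil gene, 1 granulocyte transcription factor, 0 lymphocyte genes, 2 neutrophil markers, 4 mast cell and basophil markers and 7 mature neutrophil genes. Both act on genes with few counts by their construction. Depth limits Camp, Retnlg, Mpo and Elane, each with 2 to 12 counts in the PBS control.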

Other observations

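Many secreted antimicrobial and acute phase genes were also higher in CANDI470. The list shares Hp, Slpi and Pglyrp1 with the granule lists. Of 16 listed, 15 were measured, 8 of them through CANDI470 alone, and 12 were at least 2-fold higher, with 0 lower and 3 within 2-fold, with a median of 4.33, or 5.40 with the 5 measured genes at 0 in the PBS control held at their bound. Saa3, a serum amyloid A gene that macrophages express, had 265730 counts in CANDI470 and 1187 in the PBS control, a difference of 7.93. Hp, Slpi and Cp, which encodes the copper carrier ceruloplasmin, were at 6.95, 6.36 and 5.40. Ptx3, a soluble pattern recognition protein, had 1086 against 0 counts, at least 405-fold higher against a floor of 3 counts per library. Lyz2 was at -0.93, with 7274 against 13837 CPM.

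Several inhibitors of granule proteases were higher in CANDI470. Of 12 listed 7 were measured and all 7 were at least 2-fold higher, but 6 of them passed the 1 CPM minimum through CANDI470 alone, so their being higher was fixed by it. The other 5 were not measured, and Serpina1a, Serpina3n, Stfa1 and A2m had no count in either library. The 7 had a median of 6.29, or 6.32 with Serpinb2 at its bound. Timp1, an inhibitor of metalloproteinases such as Mmp8, had 10242 against 6 counts, a difference of 8.09. Slpi and Serpinb1a, which inhibit neutrophil elastase, had 6210 against 49 and 3694 against 16 counts, differences of 6.36 and 6.32. Serpina3g was at 6.29, and in the CANDI470 table it overlaps 1 gene model that the control table lacks. Elane itself had 2 counts in CANDI470 and 10 in the PBS control. Hp and Slpi are each in more than 1 of these lists.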
